A study of Mus musculus with 10 samples.

Results

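RNA polymerase II (Pol II) transcribes protein-coding genes and many non-coding RNAs. In chromatin immunoprecipitation sequencing (ChIP-seq) it commonly gives a narrow peak at a promoter, where the enzyme pauses soon after starting, and it can spread over the body of a gene that is transcribed strongly. A wide called peak can therefore cover a promoter together with transcribed sequence, a stretch of clustered regulatory sites, or several neighbouring start sites, and the width alone does not tell these apart.

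The peaks described here are the broad Pol II peaks of 2 kinds of mouse cells, the embryonic stem (ES) cell line ES-E14TG2a and primary embryonic fibroblasts (MEFs). They were chosen by their width, an end minus start of at least 4000 bp, on the 19 autosomes. Of 31667 autosomal Pol II peaks of ES cells 1403 met this rule (4.43%), and of 12962 autosomal peaks of MEFs 474 did (3.66%), which makes 1877 of 44629 peaks in all. Because width chose them, widths and all other values of the same list are given as a description.

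ES-E14TG2a is an established mouse ES cell line, grown here on gelatin with serum and LIF, the cytokine that keeps such cells undifferentiated. The MEFs were made from E12.5 embryos, grown without LIF and used after 3 to 5 passages, so they are a mixed population of embryonic cells that attach and divide in culture. No genetic change or drug treatment is named for either cell type. One Pol II library per cell type was made with the N-20 antibody, whose epitope is in the N-terminal part of the largest Pol II subunit, and the POLR3C, POLR3G and POLR3GL libraries of the same cells map RNA polymerase III (Pol III). With 1 library per antibody and cell type there is no replicate error. Shares carry exact Clopper-Pearson 95% intervals, which cover counting error over peaks only, and a difference between cell types has no replicate check. How many reads each list rests on is not known. Positions are 1-based on mouse build mm9. No gene annotation of this build was used here, so no peak is tied to a gene, exon, intron or UTR, the cell type labels were not checked against marker genes, and the loci are named by position.

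ES cells had both more and wider broad peaks. The median width of the 1403 ES peaks was 5698 bp (quartiles 4670 and 7471 bp) and the widest reached 38221 bp, whereas the 474 MEF peaks had a median of 5000 bp (quartiles 4383 and 5914 bp) and none was wider than 9068 bp. There were 309 ES peaks of 8 kb or more and 16 in MEFs. Broad peaks were a small part of each list by number but a larger part by length. They held 9.49 of the 44.6 Mb under autosomal Pol II peaks in ES cells (21.3%) and 2.50 of the 18.4 Mb in MEFs (13.6%).

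**Figure D1:**
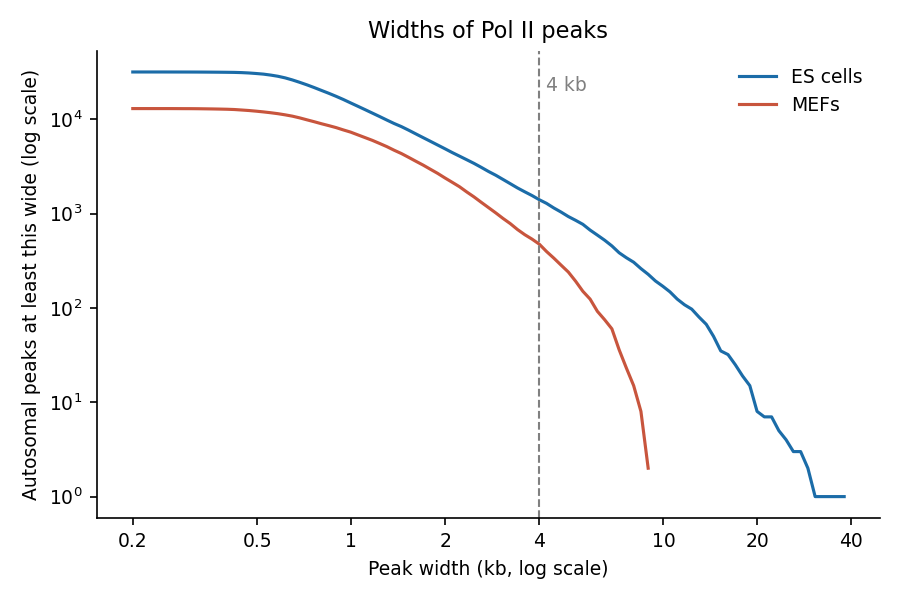
Number of autosomal Pol II peaks (vertical axis, log scale) at least as wide as the value on the horizontal axis (kb, log scale), with 1 line for each cell type and the 4 kb minimum as a dashed line. The MEF line ends at 9.07 kb, while the ES line runs on to 38.2 kb.

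The widest ES peak lay at chr4:118780724-118818944. Its score of 472.72 was above that of 85.2% of the list, and a single MEF peak of 806 bp, near its left end, covered 2.11% of it. The second, chr4:126697672-126727082, was 29411 bp wide with a score of 1121.28, and 2 MEF peaks lay in it, one of them broad at 4905 bp. The third, chr6:67229514-67257226, was 27713 bp wide with a score of 1806.26 and had no MEF peak, the nearest being 12040 bp away. The leading 3 thus show each of the arrangements with MEFs: narrow, broad and none. Next in width were chr18:75533933-75559680 (25748 bp, score 399.35), chr8:34882540-34906399 (23860 bp, score 2344.4) and chr6:51401532-51424313 (22782 bp, score 3100). They were followed by chr18:61735862-61758303 (22442 bp), chr7:125243042-125263707 (20666 bp), chr4:116266360-116286300 (19941 bp) and chr17:34241344-34260860 (19517 bp). Of the 10 widest ES peaks, 3 lay on chromosome 4, and 1 overlapped a broad MEF peak.

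In MEFs the widest peak was chr11:87235741-87244808, with 9068 bp and a score of 55.46, which is higher than only 7.5% of the MEF list. Over it lay 2 ES peaks, and the one with more overlap, chr11:87235213-87239208, was 3996 bp wide with an ES score of 3100. That ES peak missed the width minimum by 4 bp. Next came chr4:135695153-135704164 (9012 bp, score 78.12), chr8:87497237-87505899 (8663 bp, score 131.27), chr1:135968022-135976633 (8612 bp, score 151.81) and chr5:137540556-137549100 (8545 bp, score 118.87). None of these 5 scored above more than 56.1% of the MEF list, whereas each of the 10 widest ES peaks scored above at least 82.5% of its own. Of the 10 widest MEF peaks, chr5:32455851-32464385 (8535 bp, score 54.29) had no ES peak at the same place, and its nearest ES peak was 17221 bp away.

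The minimum of 4000 bp cuts through a continuous range of widths. The members just inside it were 4003 bp (chr9:109795425-109799427, score 487.88) and 4005 bp (chr10:110918664-110922668, score 461.27) in ES cells, and 4005 bp (chr3:142031063-142035067, score 62.92) and 4010 bp (chr2:90898899-90902908, score 91.94) in MEFs. Just outside were ES peaks of 3997 bp (chr10:117145244-117149240, score 1378.31) and 3996 bp, the peak named above on chromosome 11. In MEFs they were 3998 bp (chr18:78942648-78946645, score 82.53) and 3997 bp (chr19:34265916-34269912, score 282.34) wide. The ES peaks just inside scored lower than those just outside. In MEFs the inside score of 62.92 was below both outside ones, and that of 91.94 lay between them.

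Broad peaks stood near the top of the ES list by score but in the middle of the MEF list. The score is the authors' own value for each peak, of unstated scale, and is used only for rank within a list. In ES cells the median broad peak scored above 96.6% of all autosomal peaks (quartiles 93.2% and 98.5%), and the lowest of the 1403 scored above 60.1%. In MEFs the median broad peak scored above 57.4% of the list, with quartiles of 31.9% and 78.6% and a range from 0.278% to 99.9%. The top score quartile, which by construction holds 25.0% of each list, contained 1395 of 1403 broad ES peaks (99.4%, 98.9 to 99.8%) and 141 of 474 broad MEF peaks (29.7%, 25.7 to 34.1%). Score and width come from the same call, so these values are a description. In the ES list limited to its 12962 highest-scored peaks, the length of the MEF list, all 1403 broad peaks were still present and 88.2% of them were in the top quartile.

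Across width classes the lists followed each other up to 2 kb and then parted. In ES cells the median percentile rose in every class, from 28.8% for peaks under 1 kb to 63.6% at 1 to 2 kb and 83.0% at 2 to 3 kb. It went on to 94.1% at 4 to 5 kb and 98.5% at 8 kb or more. In MEFs it rose from 31.1% to 64.4% and 75.2% in the first 3 classes, then fell to 68.0% at 3 to 4 kb, 60.1% at 4 to 5 kb, stood at 62.7% at 5 to 6 kb, and was 52.0% at 6 to 8 kb and 24.2% for the 16 peaks of 8 kb or more. Across all peaks of a list, which are not independent replicates, the rank correlation of width and score was 0.76 in ES cells and 0.50 in MEFs, and among broad peaks alone it was 0.43 and -0.13.

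**Figure D2:**
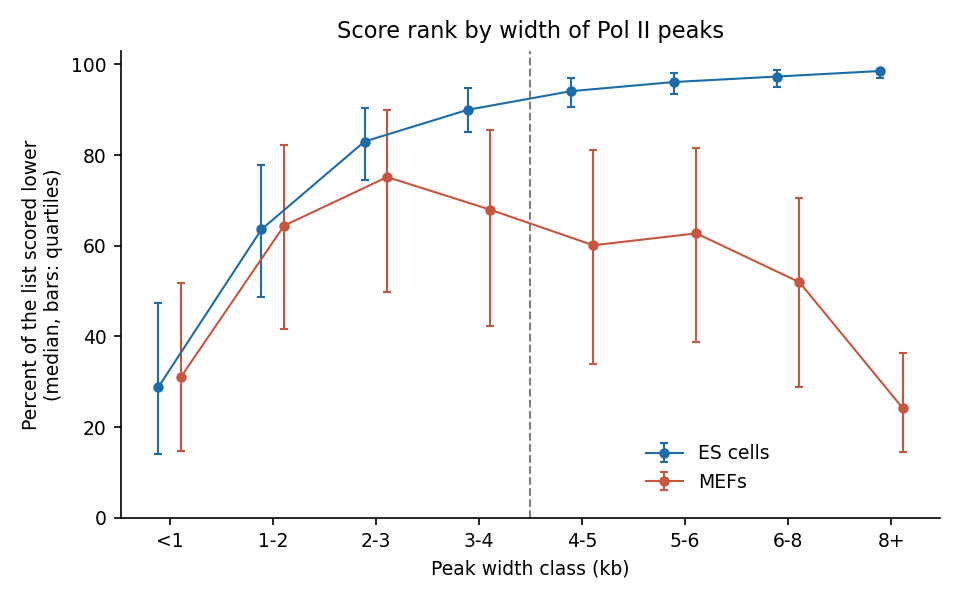
Percent of the autosomal peaks of the same list that score lower (vertical axis) for peaks in 8 width classes (horizontal axis, kb), with the median as a point and the quartiles as bars. ES cells climb to a median of 98.5% in the widest class, while MEFs peak at 75.2% in the class of 2 to 3 kb and end at 24.2%. The dashed line marks 4 kb.

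At the very top of the ES list many scores were tied. A score of exactly 3100 was shared by 362 autosomal ES peaks, of which 283 were broad (78.2%, 73.6 to 82.3%), so ranks among them cannot be resolved. A further 24 ES peaks scored above 3100, and 14 of these were broad. They include the leading ES peak by score, chr2:71738080-71744411 (6332 bp, score 3233.06), and the next broad one, chr12:40946039-40950809 (4771 bp, score 3228.29), both without a MEF peak at the same place. The other 3 of the 5 highest-scored broad ES peaks were chr1:155326916-155335137 (8222 bp, score 3200.71), chr11:80218227-80224964 (6738 bp, score 3196.71) and chr1:63181930-63187543 (5614 bp, score 3193.77). Only the first of these 3 had a MEF peak, which was 786 bp wide.

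Of the 386 ES peaks at or above the tied score 297 were broad (76.9%, 72.4 to 81.1%). Of the 500 highest-scored peaks, a limit that no tie crosses in either list, 375 were broad in ES cells and 25 in MEFs. None of the 10 highest-scored MEF peaks was broad. The broad MEF peak with the highest score was chr10:24314324-24320299 (5976 bp), whose score of 1802.44 ranked 12 in its list, and a broad ES peak of 5336 bp with a score of 2902.54 lay wholly inside it. After it came chr11:87262209-87266224 (4016 bp, score 1319.57), chr10:39976492-39981622 (5131 bp, score 1183.65), chr13:81021775-81026071 (4297 bp, score 1156.81) and chr12:55796375-55801866 (5492 bp, score 950.65). Over each of these 4 lay an ES peak at the tied score of 3100, broad at the peaks of chromosomes 10 and 13 and narrower at those of chromosomes 11 and 12.

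Broad peaks occurred on all 19 autosomes in both cell types and largely followed the spread of all Pol II peaks. Chromosome 11 held most of them, with 154 in ES cells (11.0%, 9.39 to 12.7%) and 55 in MEFs (11.6%, 8.86 to 14.8%), against 9.38% and 7.85% of all autosomal peaks. In ES cells chromosome 8 stood out further, with 127 broad peaks (9.05%, 7.60 to 10.7%) against 6.64% of all peaks. Put per chromosome, 6.04% (5.06 to 7.15%) of the 2102 ES peaks on chromosome 8 were broad, the highest share of any autosome in that list. In MEFs chromosome 8 held 22 broad peaks, or 4.64% (2.93 to 6.94%), against 5.25% of all peaks.

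The share of chromosome 8 in ES cells was similar when peaks at most 1 kb apart were joined (8.65% of joined regions of 4 kb or more) and for peaks of 5 kb or more (9.43%). In MEFs the share of chromosome 3 was 8.65% (6.28 to 11.6%) against 5.65% of all peaks. At the low end chromosome 12 of ES cells held 35 broad peaks (2.49%, 1.74 to 3.45%) against 3.61%. In all, 5 of the 38 intervals, on chromosomes 8, 11 and 12 in ES cells and 3 and 11 in MEFs, did not contain the chromosome's share of all peaks. That of chromosome 11 in ES cells missed it by the last digit. The intervals treat broad peaks as independent, although many lie close together.

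**Figure D3:**
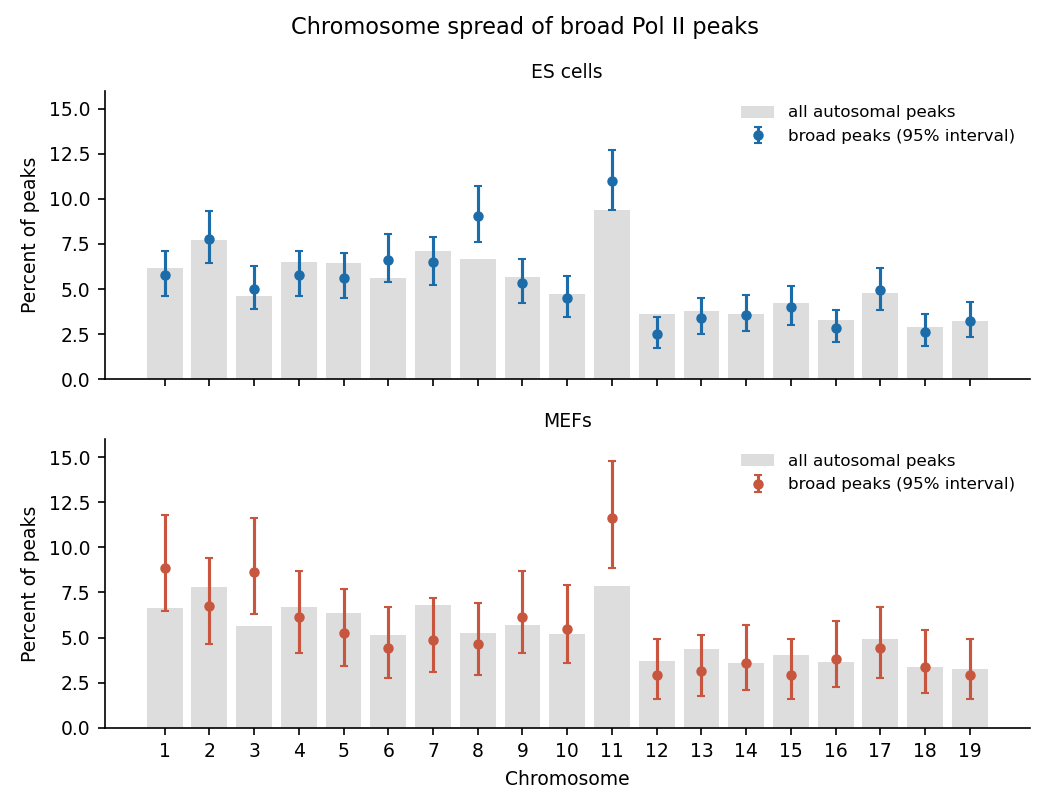
Share of the broad Pol II peaks on each autosome (points, with exact 95% intervals) and share of all autosomal Pol II peaks there (grey bars), in percent, for ES cells above and MEFs below. Chromosome 11 is the highest in both, and chromosome 8 of ES cells stands at 9.05% against a bar of 6.64%.

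At the same place, most broad ES peaks had no MEF peak, and most broad MEF peaks had an ES peak. The MEF list took no part in choosing the ES members, and the reverse. A place was counted as shared from 1 bp of overlap, as broad where any overlapping peak of the other list was at least 4000 bp wide, and as narrow where none was. Of the 1403 ES peaks, 135 met a broad MEF peak (9.62%, 8.13 to 11.3%), 477 met only narrower MEF peaks (34.0%, 31.5 to 36.5%) and 791 met none (56.4%, 53.7 to 59.0%). Over all autosomal ES peaks these shares were 1.69%, 25.2% and 73.1%.

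Of the 474 MEF peaks, 134 met a broad ES peak (28.3%, 24.3 to 32.6%), 223 met only narrower ES peaks (47.0%, 42.5 to 51.7%) and 117 met none (24.7%, 20.9 to 28.8%). Over all autosomal MEF peaks the shares were 5.21%, 56.9% and 37.9%. The lists differ in length, 31667 against 12962 peaks, so the shares of the 2 cell types cannot be set against each other directly. With the 474 widest peaks of each list called broad, which moves the ES minimum to 6760 bp, 14.1% of ES and 14.3% of MEF members met a broad peak of the other list. Overlap is mutual and both sets then hold 474 peaks, so these shares are bound to be nearly equal. Their closeness is therefore no comparison of the cell types.

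A wide peak has more room to meet another, so a window of fixed size at the centre was also used. It is wider than the peaks under 1 kb. When only the 1000 bp around each peak's centre had to be touched, 374 of the 1403 broad ES peaks met a MEF peak (26.7%, 24.4 to 29.1%), as against 26.4% (25.9 to 26.9%) of narrower ES peaks. In MEFs the share was 60.1% (55.6 to 64.6%) for broad and 61.4% (60.5 to 62.2%) for narrower peaks. By the centre, then, broad peaks of either list met a peak of the other about as often as narrower ones did, with intervals that overlap. These shares are not matched for score. The top score quartile held 99.4% of broad but 21.5% of narrower ES peaks, and within score quartiles the centre shares differed, as given below. Broad peaks of the other list were met at the centre by 119 broad ES peaks (8.48%, 7.08 to 10.1%) against 1.34% of narrower ones, and by 133 broad MEF peaks (28.1%, 24.1 to 32.3%) against 4.33%.

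**Figure D4:**
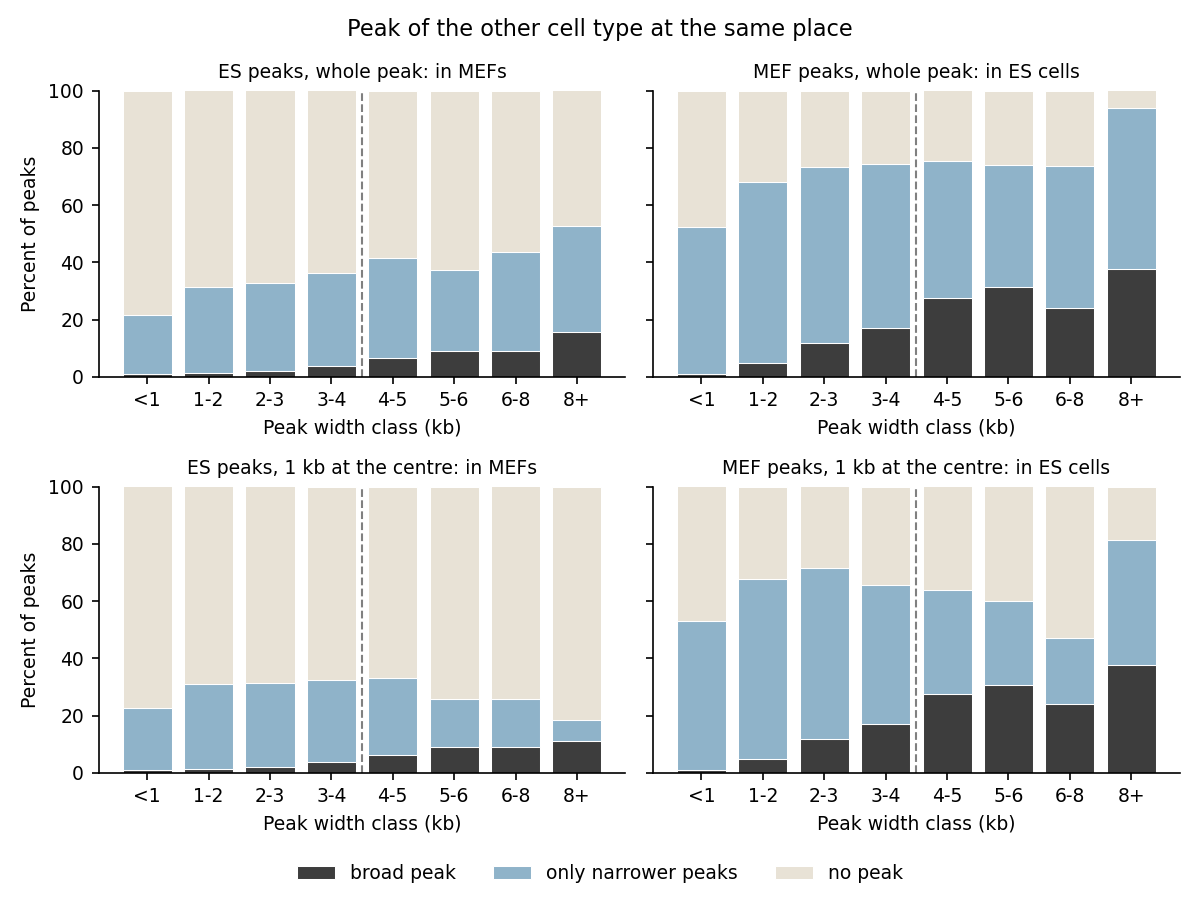
Percent of autosomal Pol II peaks in each width class (horizontal axis, kb) that met a broad peak, only narrower peaks or no peak of the other cell type, for ES peaks on the left and MEF peaks on the right. The upper panels count any base of the peak and the lower panels only the 1000 bp at its centre, and the dashed lines mark 4 kb. The part with a broad peak grows with width up to 6 kb in all panels, and for ES peaks of 8 kb or more the part with no peak is 47.2% above and 81.6% below.

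Within the top score quartile, broad peaks of both lists met a peak of the other less often than narrower ones did. That difference was not tested, and for MEF peaks with any base the intervals overlapped. Among ES peaks of the top score quartile, 43.9% (41.2 to 46.5%) of the 1395 broad peaks met a MEF peak with any base, compared with 53.3% (52.1 to 54.6%) of the 6521 narrower ones. At the centre these were 26.8% (24.5 to 29.2%) and 52.3% (51.1 to 53.5%). MEF peaks of low score went the other way. In the lowest quartile 61 of 89 broad peaks met an ES peak with any base (68.5%, 57.8 to 78.0%), against 35.6% (34.0 to 37.3%) of narrower peaks, and in the highest quartile 115 of 141 did (81.6%, 74.2 to 87.6%), against 87.5% (86.3 to 88.6%). With the centre window the lowest quartile still gave 59.6% (48.6 to 69.8%) against 36.4% (34.7 to 38.1%), and the highest gave 66.0% (57.5 to 73.7%) against 86.7% (85.5 to 87.9%).

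Where a broad ES peak met only narrower MEF peaks, the called MEF peaks covered a small part of it. The definition, with widths on either side of 4000 bp, partly fixes this. MEF peaks covered a median of 31.7% of these 477 ES peaks (quartiles 20.1% and 47.5%), and the widest MEF peak at each place had a median width of 1931 bp. Most, 400 of 477, had the best-overlapping MEF peak wholly inside. The centre of that MEF peak fell in the middle stretch, from 1/3 to 2/3, of the ES peak in 154 of the 477 (32.3%, 28.1 to 36.7%). Only centres free to lie anywhere along the ES peak would give 1/3 inside this stretch and 2/3 outside it. A MEF peak wholly inside cannot have its centre near an edge, and this limit weighs more in narrower ES peaks. The shares are therefore no measure of an even spread, and their rise with width is partly fixed by this limit. The centre of the MEF peak fell outside the middle stretch in 60.4% (54.0 to 66.5%) of the 250 members under 6 kb. For the 112 members of 6 to 8 kb this was 70.5% (61.2 to 78.8%), and for the 115 members of 8 kb or more 80.9% (72.5 to 87.6%). The widest examples were the peaks on chromosomes 4 and 18 already given, with coverage of 2.11% and 13.3%. They were followed by chr6:51401532-51424313, where a MEF peak of 2905 bp covered 12.8%, by chr7:125243042-125263707, with 2996 bp and 14.5%, and by chr4:116266360-116286300, with 1251 bp and 6.27%. On chromosomes 6 and 7 the narrow MEF peaks were themselves high in their list, with scores above 97.5% and 95.2% of it.

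Broad MEF peaks with only narrower ES peaks often held several of them, with a median of 2 (quartiles 1 and 2) over the 223 members. Counting all 474 broad MEF peaks, 222 met exactly 1 ES peak, 96 met 2, 33 met 3 and 6 met 4, so that 28.5% (24.5 to 32.8%) met at least 2, against 4.36% of all autosomal MEF peaks. For broad ES peaks the corresponding share was 4.42% (3.40 to 5.63%), against 0.549% of all ES peaks. A wide peak has more room to meet several, and the shares of all peaks are not matched for width. ES peaks covered a median of 41.3% of the 223 MEF members that met only narrower ones. At the widest of these, chr11:87235741-87244808, 2 ES peaks covered 76.3%, and at chr9:69300724-69309228 (8505 bp, score 64.63) 3 ES peaks covered 39.8%. By contrast, at chr5:137540556-137549100 a single ES peak of 761 bp covered 8.91%.

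Members without any peak of the other cell type had one within 10 kb about as often as all unmet peaks of their list. In ES cells more of them had one within 50 kb. In MEFs their median distance was larger, given without an interval. For the 791 ES members the nearest MEF peak was a median of 15553 bp away, against 17267 bp for all unmet autosomal ES peaks. It was within 10 kb for 297 of them (37.5%, 34.2 to 41.0%), against 35.5%, and within 50 kb for 661 (83.6%, 80.8 to 86.1%), against 77.6%. For the 117 MEF members the nearest ES peak was a median of 44959 bp away, against 34021 bp for all unmet autosomal MEF peaks. It was within 10 kb for 27 (23.1%, 15.8 to 31.8%), against 24.5%, and within 50 kb for 61 (52.1%, 42.7 to 61.5%), against 59.7%. Among the widest of these in MEFs, chr6:17255498-17263031 (7534 bp, score 161.19) was 238779 bp from an ES peak. At chr3:99154201-99161667 (7467 bp, score 108.11) the distance was 208569 bp, and at chr2:148227108-148234564 (7457 bp, score 82.13) it was 263204 bp. In contrast, chr18:52672388-52680201 (7814 bp, score 195.6) had an ES peak 9194 bp away. In ES cells the widest members with none were those on chromosomes 6, 8, 18 and 17 named above and chr2:51925923-51945170 (19248 bp, score 2830.09), and their nearest MEF peaks lay between 1626 bp (chr18:61735862-61758303) and 63520 bp (chr17:34241344-34260860) away.

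ES members without a MEF peak scored lower than the others but still high. Their median percentile was 95.1%, compared with 97.6% for those with narrower and 98.7% for those with broad MEF peaks. MEF members followed the same order only in part, with 47.8% for none, 60.9% for narrower and 58.8% for broad. Shares without a peak of the other list also varied by chromosome, and only some chromosomes are given here. Over all autosomes they were 56.4% of broad and 73.1% of all ES peaks, and 24.7% of broad and 37.9% of all MEF peaks. On chromosome 8, 94 of the 127 broad ES peaks had no MEF peak (74.0%, 65.5 to 81.4%), against 77.4% of all ES peaks there, so that broad peaks of this chromosome were near its own level. On chromosome 11, 75 of 154 had none (48.7%, 40.6 to 56.9%), against 74.0% of all ES peaks there. This interval includes the 56.4% of all broad ES peaks. On chromosome 11 of MEFs 6 of 55 broad peaks had no ES peak (10.9%, 4.11 to 22.2%), against 29.3% of all, and 24 met a broad one. On chromosome 18 of MEFs 8 of 16 had none (50.0%, 24.7 to 75.3%), an interval that includes the 41.1% of all MEF peaks there.

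The broad peaks that met each other formed 136 pairs of 135 ES and 134 MEF peaks. The MEF partner lay inside the ES peak in most, since the median MEF partner was covered to 100% and the median ES partner to 74.9%, and 105 of 136 had at least 90% of the MEF peak inside. At least 50% of both peaks was shared in 106 pairs. The ES peak was the wider one in 104 pairs and the MEF peak in 32, with a median ES to MEF width ratio of 1.23 (quartiles 1.01 and 1.69). Widths of partners were barely related across pairs (Spearman rho 0.08), and score percentiles weakly (rho 0.31). These describe pairs of 2 libraries and are not tests.

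Score ranks differed sharply within such pairs. The ES partners had a median percentile of 98.7% and none was below the median of its list, whereas 53 of the 134 MEF partners were. The MEF partners had a median percentile of 58.8%. Over all broad peaks the median percentiles were 96.6% in ES cells and 57.4% in MEFs. Above the list median stood 1403 of 1403 broad ES peaks and 275 of 474 broad MEF peaks (58.0%), so MEF partners were near the level of all broad MEF peaks. The largest overlap, 8345 bp, was at chr14:76243977-76252321 in ES cells and chr14:76243888-76252321 in MEFs, which share their right end to the base. The ES score there was the tied 3100, and the MEF score of 65.53 was above 17.6% of the MEF list. At chr17:36052374-36061289 in ES cells and chr17:36052342-36060641 in MEFs the scores were 3100 and 85.2, with 8268 bp in common. The 16560 bp ES peak chr7:118211081-118227640 (score 1373.97) contained the whole of the MEF peak chr7:118211116-118219321 (8206 bp, score 81.05).

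The pair with the lowest MEF score lay at chr2:121277861-121285885, with a score of 50.2 that was above 0.3% of the MEF list. Its ES partner, chr2:121278145-121286427, scored 2473.05, above 98.3% of the ES list. Also on chromosome 2, the ES peak chr2:155989273-156007022 (17750 bp, score 3100) held 7775 bp of the MEF peak chr2:155999248-156007178 (7931 bp, score 64.31). In all 5 pairs of largest overlap the MEF peak thus scored above 30.7% of its list or less, and the ES peak above 95.9% of its own or more. Choosing by overlap in bp favours wide MEF peaks. All 16 MEF peaks of 8 kb or more, paired or not, had a median percentile of 24.2%.

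Broad ES peaks lay in dense rows of peaks, and broad MEF peaks did not. The median distance to the nearest other peak of the same list was 183 bp for broad and 1420 bp for narrower ES peaks. For MEF peaks it was 12738 bp and 22702 bp. Another Pol II peak lay within 1 kb of 1105 of 1403 broad ES peaks (78.8%, 76.5 to 80.9%), against 46.8% of all autosomal ES peaks, and on both sides of 484 (34.5%, 32.0 to 37.1%), against 14.1%. In MEFs 39 of 474 had one within 1 kb (8.23%, 5.92 to 11.1%), against 7.92% of all autosomal MEF peaks, and 1 had one on both sides (0.211%), against 0.1%. Gaps of 100 bp or less were found at 517 broad ES peaks (36.8%, 34.3 to 39.4%), against 17.2% of all, and at 16 broad MEF peaks (3.38%, 1.94 to 5.42%), against 3.87% of all. The sonicated fragments averaged 200 to 700 bp, per the labels' protocols, so gaps of this size are below the length of the fragments. With the ES list limited to the length of the MEF list the median distance in ES cells was 729 bp.

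**Figure D5:**
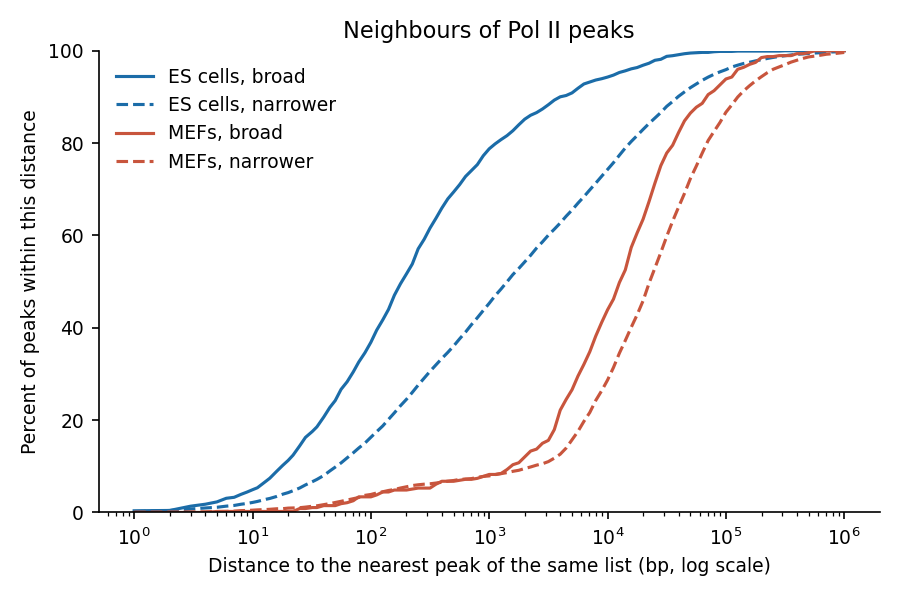
Percent of autosomal Pol II peaks (vertical axis) whose nearest other peak of the same list lies within the distance on the horizontal axis (bp, log scale), for broad (solid) and narrower (dashed) peaks. The line of broad ES peaks stands at 78.8% at 1 kb, while the MEF lines stand at 8.23% and 7.91% there.

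Joining peaks of a list that lay at most 1 kb apart therefore changed ES cells more than MEFs. Joined regions of 4 kb or more numbered 2647 in ES cells, of which 1472 held no single broad peak, and 499 in MEFs, of which 35 held none. The median ES member lay in a joined region of 3 peaks and 10752 bp, and the median MEF member in one of 1 peak and 5079 bp. In ES cells 159 joined regions held 2 or more broad peaks. The region with the greatest length, chosen after its values were seen, was chr10:62254747-62362059, where 16 ES peaks, 10 of them broad, spanned 107313 bp with gaps of at most 1 kb. In the same span MEFs had 3 peaks, none wider than 902 bp. The next, chosen likewise, was chr3:41358862-41429183, with 12 ES peaks over 70322 bp and 1 MEF peak of 2407 bp. In MEFs the longest was chr5:93612318-93629086, with 3 peaks over 16769 bp.

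Gaps also enter the call of broad or narrow at a shared place. Of the 223 broad MEF peaks with only narrower ES peaks, 60 (26.9%, 21.2 to 33.2%) lay on a joined ES region of 4 kb or more. In the other direction 4 of 477 did (0.839%, 0.229 to 2.13%).

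Broad peaks also gathered near each other. Another broad peak lay within 50 kb of 695 ES members (49.5%, 46.9 to 52.2%), compared with 31.2% of all autosomal ES peaks that had one, and of 120 MEF members (25.3%, 21.5 to 29.5%), compared with 6.90% of all autosomal MEF peaks. Within 10 kb the shares were 32.9% in ES cells and 12.0% in MEFs. From one member to the nearest other, the median distance was 52581 bp in ES cells, and in MEFs it was 601953 bp.

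Pol III peaks were rare in broad Pol II peaks. POLR3C is a subunit of Pol III, the polymerase of tRNA and other short RNA genes, and POLR3G and POLR3GL are alternative subunits of the same enzyme. In ES cells the POLR3G list held only 3 autosomal peaks, none in a Pol II peak, while those of POLR3C and POLR3GL held 311 and 231. In MEFs the POLR3C, POLR3G and POLR3GL lists held 274, 176 and 263. Among 1403 broad ES peaks 2 held a Pol III peak of ES cells (0.143%, 0.0173 to 0.514%), against 0.309% of all autosomal ES Pol II peaks. Among 474 broad MEF peaks 1 held a Pol III peak of MEFs (0.211%, 0.00534 to 1.17%), against 0.625% of all autosomal MEF Pol II peaks. The intervals of both include the share of all peaks.

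Seen from the Pol III lists, 106 autosomal POLR3C peaks of ES cells lay in any Pol II peak. Of these, 3 lay in a broad one (2.83%), while 4.43% of the ES Pol II peaks are broad. Broad peaks hold 21.3% of the length under ES Pol II peaks, so they have more room than their number shows. Per Mb there were 0.316 POLR3C peaks in broad and 2.94 in narrower ES Pol II peaks. In MEFs 0 of 87 POLR3C peaks and 0 of 66 POLR3G peaks in Pol II peaks lay in a broad one, and 1 of 84 POLR3GL peaks did. Per Mb of broad and of narrower MEF Pol II peaks these were 0 and 5.49 for POLR3C and 0.399 and 5.23 for POLR3GL. These counts rest on very few peaks and come with no test. The 2 ES members were chr13:22111763-22116573 (4811 bp, Pol II score 623.55), with 2 POLR3C peaks, the higher of which scored 2600, and 2 POLR3GL peaks, and chr2:27391924-27396268 (4345 bp, Pol II score 1806.92), with 1 POLR3C peak (score 2483) and 1 POLR3GL peak (score 35). The MEF member was chr1:135968022-135976633, with 1 POLR3GL peak of score 18 and no POLR3C or POLR3G peak.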

How the data were processed

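Peak lists of the Pol II libraries and the 6 Pol III libraries were used, while the inputs (2 libraries) were not analysed here. Per the submitters' processing notes, the tools were HOMER, SAMtools, Bowtie 1.12 and CASAVA 1.8 and the build mm9, with no role or order given. The peak names of the Pol II lists begin with MACS. For calling thresholds, control, pooling and depth, nothing is stated (not given in the sources used here). The deposited score has no stated scale. It was used only for rank within a list. The deposited start and end were read as BED positions.

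Members were peaks of at least 4000 bp on autosomes. Shared places needed 1 bp of overlap. Shares have exact Clopper-Pearson 95% intervals, and no test was run, since each cell type has 1 library. The members and measures were chosen with earlier results of these data known. Regions named are the 10 widest per cell type, the 5 highest-scored, the 5 with the largest overlap with a broad peak of the other list, the 5 widest with narrower and with no peak there, those next to the width minimum, and those with Pol III. Alternatives varied the width minimum, the joining of peaks, chromosome X, the overlap rule, the other list and the distances. The ES list limited to the length of the MEF list was added after seeing the data. The overlap functions were tested on simulated data. Python 3.11.15, numpy 2.4.6, scipy 1.17.1, pandas 2.3.3 and matplotlib 3.10.9 were used.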

Additional observations from a re-analysis of the deposited data

How the results depend on the processing

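For each cell type 10 results (the number of members, their 3 shares by peak of the other list, score rank and top quartile, leading autosome, distance to the nearest peak, near members and Pol III) were recomputed under each alternative that applies to them. The pairs, coverage, score quartile comparison and distances of unmet members were not. Of 130 values 72 stayed within the 95% interval of the reported one (for numbers of members, within 1.5 times the reported number) and 58 did not. Adding chromosome X moved none of its 20 values, and requiring 50% of the shorter peak moved none of its 6. No paired analysis was possible because each group has 1 library. The tied top score could be ranked first in ES cells only, since the top score of MEFs, 3100, occurs once. The cause of each move was not tested.

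With a minimum of 3000 bp there were 2397 ES and 935 MEF members. ES shares were 13.0% with broad, 27.5% with narrow and 59.5% with no MEF peak, 97.0% in the top quartile and 61.8% near another member, with 7 Pol III members. MEF shares were 32.8% with broad and 41.9% with narrow ES peaks, 34.5% in the top quartile and 32.5% near another, with 3 Pol III members. With 5000 bp there were 912 and 237 members. ES shares were 6.03% with broad, 38.7% with narrow and 38.3% near another, with 0 Pol III members, and MEF shares 23.6% with broad and 13.1% near another.

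With peaks at most 1000 bp apart joined there were 2647 ES regions, 7.25% with broad and 38.5% with narrow MEF regions, 79.7% in the top quartile and 54.9% near another, with 10 Pol III members. MEF regions gave 40.1% with broad and 34.9% with narrow. With a slack of 1000 bp, ES gave 37.6% narrow and 52.5% none. At the centre ES gave 18.2% narrow and 73.3% none, and MEFs 32.1% narrow and 39.9% none. Against the other list above its median score, ES gave 5.77% broad, 21.2% narrow and 73.0% none, and MEFs 38.4% narrow and 33.3% none. With the 474 widest peaks of both lists, ES gave 14.1% broad and 51.5% none, and MEFs 14.3% broad and 61.0% narrow. Neighbours within 10 kb were found for 32.9% of ES and 12.0% of MEF members, and within 100 kb for 56.4% and 30.6%. With the ES list limited to the length of the MEF list, 88.2% of ES members were in the top quartile, and MEF members gave 35.7% narrow and 36.1% none.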

Other observations

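Outside the autosomes, chromosome X held 16 peaks of 4 kb or more among 676 ES peaks (2.37%, 1.36 to 3.82%) and 8 among 341 MEF peaks (2.35%, 1.02 to 4.57%). In either list this was below the 4.43% and 3.66% found on autosomes, with the MEF interval including the autosomal value.

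Pol III peaks of MEFs were also set against the broad Pol II peaks of ES cells, a comparison across cell types that the text above does not use. Of the MEF POLR3G peaks that lay in any ES Pol II peak, 6 of 74 lay in a broad one (8.11%). This compares with 3 of 90 for MEF POLR3C (3.33%) and 5 of 91 for MEF POLR3GL (5.49%). Broad peaks are 4.43% of the ES Pol II peaks and 21.3% of their length. Per Mb of broad and of narrower ES peaks there were 0.632 and 1.94 for POLR3G. For POLR3C these were 0.316 and 2.48, and for POLR3GL 0.527 and 2.45. None of the 92 POLR3C peaks of ES cells that lay in a MEF Pol II peak lay in a broad one, while 3.66% of MEF Pol II peaks are broad. These counts are small and come with no test.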
